A study of Danio rerio with 3 samples.

Results

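The inner ear genes described here are 4 genes of the otolith and its overlying membrane (*oc90*, *otomp*, *stm* and *tecta*) and 5 genes of sensory hair cells (*myo7aa*, *cdh23*, *pcdh15a*, *otofb* and *atoh1a*). They were taken by gene symbol from a table with 28084 rows that name a gene, and the rule for taking them uses no measured value. The genes themselves were chosen with earlier results of these data known. All 9 genes were found, on 10 rows, since *cdh23* is listed on 2. RNA was sequenced from whole zebrafish larvae of the AB strain at 6 dpf (days post-fertilization), with 1 library per condition. The WT larvae were wild type and are labelled untreated. The 5MO larvae had been injected as early cleavage-stage embryos with a morpholino, an antisense oligonucleotide, against *atg5*, a gene needed to form autophagosomes. The 5mRNA larvae had been injected with *atg5* mRNA and are labelled as overexpressing the gene. None of the 3 libraries came from larvae injected with a control morpholino, so the effect of *atg5* and that of injection cannot be told apart in a comparison with WT. The study's methods describe pools of larvae for WT and 5MO, whose values therefore average over many ears and lateral lines, and the number of larvae behind the 5mRNA library is not given in the sources used here.

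Otoliths are the crystals of calcium carbonate that load the gravity- and sound-sensing patches of the fish ear. They grow on a protein matrix that the ear epithelium secretes into its lumen. Below them, hair cells turn the bending of an apical bundle of stereocilia into a receptor current, through channels pulled by fine tip links, and pass the signal on at ribbon synapses. Zebrafish also carry hair cells in the neuromasts of the lateral line on the body surface. Otolith matrix genes thus relate to a small secretory epithelium, and hair cell genes to cells spread over head and trunk. Some of these genes are used outside the ear as well, so their values in whole larvae may include other tissues.

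STAR, the aligner named in the submitters' notes, took between 27492652 and 31140490 read pairs per library and placed 87.63% to 87.88% of them at a single position. The deposited values are RPKM, reads of a gene scaled to its length and to the library's read total. They lie on whole-number steps, from which the read totals 19502144 for WT, 20301332 for 5MO and 21857365 for 5mRNA were recovered, along with the fewest whole reads that each gene's values allow. Read numbers below are these minima, and true ones may be larger by a whole factor, which would make the intervals narrower. *atg5* itself was at 9.08 RPKM in WT, 7.69 in 5MO and 8.97 in 5mRNA. Its ratio to WT was 0.847 in 5MO and 0.989 in 5mRNA, so the library labelled as overexpression held no more *atg5* reads per total than WT.

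*stm* encodes Starmaker, an acidic matrix protein that shapes the otolith crystal, and stood at 74.1 RPKM in WT, above 96.2% of all rows. *otomp*, the otolith matrix protein needed for normal otolith growth, followed at 4.36 RPKM. *pcdh15a* and *myo7aa* were next at 2.52 and 2.41 RPKM, and *otofb* at 1.98. *tecta* stood at 1.16 RPKM. The shorter *cdh23* row, the longer one and *oc90* stood at 0.933, 0.749 and 0.587. *atoh1a* was lowest at 0.189 RPKM, with 19.9% of all rows below it. The exact 95% Poisson intervals of these levels, which cover counting error only, overlapped between *pcdh15a* and *myo7aa*, between *myo7aa* and *otofb*, and between each neighbouring pair from *tecta* down to *atoh1a*. They did not overlap between *stm* and *otomp*, between *otomp* and *pcdh15a* or between *otofb* and *tecta*.

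**Figure D1:**
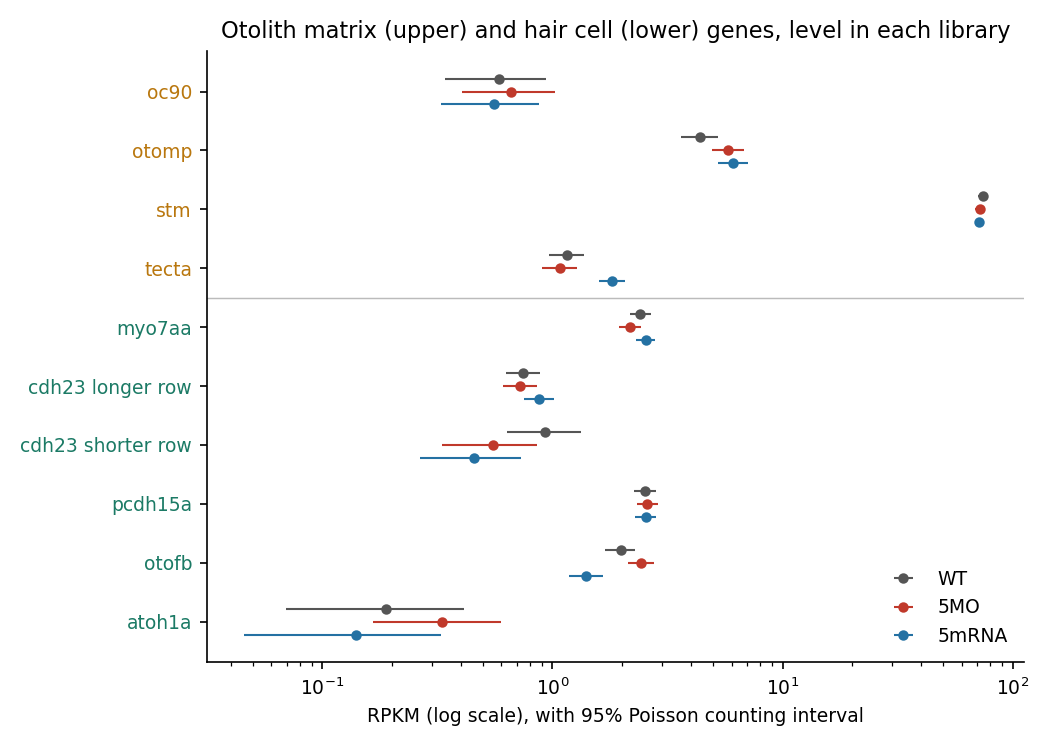
RPKM of each member row (log axis) in the WT, 5MO and 5mRNA libraries, 1 point per library, with the exact 95% Poisson interval of its reads as bars. *stm* lies at 71.3 to 74.1 RPKM in all 3 libraries, while *atoh1a* lies between 0.140 and 0.332 RPKM with intervals that overlap.

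*stm* made up 92.4% of the summed RPKM of the 4 matrix genes in WT, 90.5% in 5MO and 89.4% in 5mRNA. Summed, the matrix genes were at 80.2, 79.4 and 79.8 RPKM in WT, 5MO and 5mRNA. The 6 hair cell rows summed to 8.78, 8.80 and 7.97 RPKM, with both rows of *cdh23* counted in full. The shorter *cdh23* row was at 0.933, 0.549 and 0.456 RPKM. In reads, which weigh long genes more, the 6 rows held 1019, 1064 and 1116. The read totals were 19502144, 20301332 and 21857365 in the same order. Without *stm* the matrix sum was 6.11 RPKM in WT, 7.54 in 5MO and 8.49 in 5mRNA. In whole larvae, fewer cells of a type and less RNA per cell cannot be told apart, and this holds for every level given here.

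The coordinates of the table place the members on chromosomes 2, 5, 8, 13, 17, 18 and 19, and the submitters' notes name danRer10 as the build. *otomp* (ENSDARG00000040306, chromosome 2 from 41654791 to 41669119) and *oc90* (ENSDARG00000001721, chromosome 2 from 43093134 to 43110935) lie 1424 kb apart on the minus strand. The tip link partners *pcdh15a* (ENSDARG00000098257, chromosome 13 from 41044796 to 41420889) and *cdh23* lie 1215 kb apart on opposite strands. *stm* (ENSDARG00000035694, chromosome 19 from 3196620 to 3226980) lies wholly inside the spans of *zgc:86598* on the opposite strand and *zgc:158445* on its own strand. *zgc:86598* was at 109.1, 100.1 and 111.4 RPKM in WT, 5MO and 5mRNA. The counting of reads by strand is not given in the sources used here, so any reads that *stm* shares with these genes cannot be told apart from its own.

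Of the otolith matrix genes, *stm* and *oc90* were within counting error of WT in both injected libraries, *otomp* was higher in both and *tecta* was higher in 5mRNA. *stm* had 1977 reads in WT against 1997 in 5MO and 2131 in 5mRNA, and the 3 levels of 74.1, 71.9 and 71.3 RPKM were within each other's counting intervals. The share of a gene is its reads over the read total, and the ratio of the *stm* shares of 5MO and WT was 0.970. The 95% Clopper-Pearson interval of this ratio, called the counting interval below, ran from 0.911 to 1.03. In 5mRNA against WT the ratio was 0.962, from 0.904 to 1.02. These intervals cover counting error only, since the reads carry no molecular identifiers and may be PCR copies, and no condition was repeated. Of the members, *stm* had the most reads and the narrowest intervals.

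*otomp* was the matrix gene that was higher in both injected libraries. Its levels were 4.36 RPKM in WT from 117 reads, 5.80 in 5MO from 162 and 6.12 in 5mRNA from 184. The ratio to WT was 1.33 in 5MO, with a counting interval from 1.04 to 1.70, and 1.40 in 5mRNA, from 1.11 to 1.79. Both comparisons use the same WT library. The injected libraries did not separate from each other, with a ratio of 5MO to 5mRNA of 0.948, from 0.763 to 1.18.

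*tecta* (ENSDARG00000059558, chromosome 5 from 62482854 to 62543523) encodes alpha-tectorin, a component of the gelatinous membranes that couple otoliths to hair bundles. It stood apart in 5mRNA alone among these 3 libraries, at 1.82 RPKM from 230 reads, against 1.16 in WT from 131 and 1.08 in 5MO from 127. The ratio was 1.57 in 5mRNA against WT, from 1.26 to 1.96, and 0.931 in 5MO against WT, from 0.724 to 1.20. The ratio of 5MO to 5mRNA was 0.594, from 0.475 to 0.742. A row of the opposite strand, *si:ch211-122g23.3*, overlaps *tecta* and was at 1.74, 1.15 and 1.13 RPKM in WT, 5MO and 5mRNA. Any reads that *tecta* shares with this row cannot be told apart from its own. *oc90* encodes otoconin 90, an otolith protein that seeds the crystal in zebrafish. It had 17 reads in WT against 20 in 5MO and 18 in 5mRNA, with levels of 0.587, 0.664 and 0.555 RPKM. Its ratio was 1.13 for 5MO and 0.945 for 5mRNA, each against WT. At this depth the interval of the first ran from 0.562 to 2.30, so any ratio within that range is compatible with the reads.

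Among the hair cell genes, the bundle genes *pcdh15a* and *myo7aa* were within counting error of WT in both injected libraries. *pcdh15a*, which forms the lower end of the tip link, had 319, 341 and 362 reads in WT, 5MO and 5mRNA, with levels of 2.52, 2.59 and 2.55 RPKM. Its ratio to WT was 1.03 in 5MO, from 0.879 to 1.20, and 1.01 in 5mRNA, from 0.869 to 1.18. *myo7aa* (ENSDARG00000099871, chromosome 18 from 3096447 to 3184792) encodes the myosin VIIA motor of the bundle and had 350, 329 and 414 reads at 2.41, 2.17 and 2.54 RPKM. Its ratio was 0.903 in 5MO against WT, from 0.774 to 1.05, and 1.06 in 5mRNA against WT, from 0.913 to 1.22. Only between the injected libraries did its interval exclude 1, with a ratio of 5MO to 5mRNA of 0.856, from 0.738 to 0.991.

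*cdh23* encodes cadherin 23, which forms the upper end of the tip link, and its 2 rows did not move together. The longer row (ENSDARG00000007561, chromosome 13 from 42926034 to 43091249) had 134 reads in WT against 135 in 5MO and 176 in 5mRNA. The shorter row (ENSDARG00000094454, chromosome 13 from 42636166 to 42885796) had 31, 19 and 17 reads. The shorter row was lower in 5mRNA than in WT, with a ratio of 0.489 from 0.254 to 0.912, while the longer row had a ratio of 1.17 from 0.931 to 1.48. Both rows carry the same gene number, they follow each other on the plus strand with 40.2 kb between them, and the RefSeq gene table of assembly GRCz12tu lists *cdh23* as 1 locus. Added together, they held 165, 154 and 193 reads, and the ratio to WT was 0.897 in 5MO, from 0.715 to 1.12, and 1.04 in 5mRNA, from 0.843 to 1.29. The level of *cdh23* as 1 gene was therefore within counting error of WT in both injected libraries. On the opposite strand, *zgc:153073* and *si:ch211-106f21.1* overlap the longer row. They were at 2.93, 3.30 and 3.52 RPKM and at 0.279, 0.805 and 0.208 RPKM in WT, 5MO and 5mRNA, and shared reads cannot be told apart.

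*otofb* (ENSDARG00000020581, chromosome 17 from 50234581 to 50294936) encodes otoferlin, the calcium sensor for vesicle release at the ribbon synapse. It was the member with the widest spread over the libraries among those above 1 RPKM. It stood at 1.98 RPKM in WT from 179 reads, at 2.43 in 5MO from 229 and at 1.40 in 5mRNA from 142. The ratio to WT was 1.23 in 5MO, from 1.01 to 1.50, and 0.708 in 5mRNA, from 0.564 to 0.887. Between the injected libraries the ratio was 1.74, from 1.40 to 2.16. *otofa*, the other otoferlin gene of zebrafish, was more abundant and had the reverse order of the injected libraries, at 11.4 RPKM in WT, 10.3 in 5MO and 13.1 in 5mRNA. Its ratio was 0.899 in 5MO, from 0.812 to 0.996, and 1.15 in 5mRNA, from 1.04 to 1.26.

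*atoh1a* (ENSDARG00000055294, chromosome 8 from 29584754 to 29586383) encodes the basic helix-loop-helix factor that starts hair cell differentiation and also acts in the hindbrain. It had 6 reads in WT against 11 in 5MO and 5 in 5mRNA, at 0.189, 0.332 and 0.140 RPKM. The ratio of 5MO to WT was 1.76, with an interval from 0.597 to 5.80, and that of 5mRNA to WT 0.744, from 0.180 to 2.92. On the same strand, *AL807792.1* overlaps 889 of the 1630 nucleotides of *atoh1a* and was at 0 RPKM in WT, 5MO and 5mRNA. How reads in the overlap were counted is not given in the sources used here. No difference in *atoh1a* was detectable at this depth. Of its paralogs, *atoh1b* had 9, 8 and 22 reads and *atoh1c* had 3, 9 and 0 reads in WT, 5MO and 5mRNA. Of the other paralogs, *myo7ab* had a ratio of 0.887 in 5MO against WT, from 0.726 to 1.08, and of 1.43 in 5mRNA against WT, from 1.20 to 1.70. *pcdh15b* had ratios of 0.939 and 1.05, and both of its intervals include 1.

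**Figure D2:**
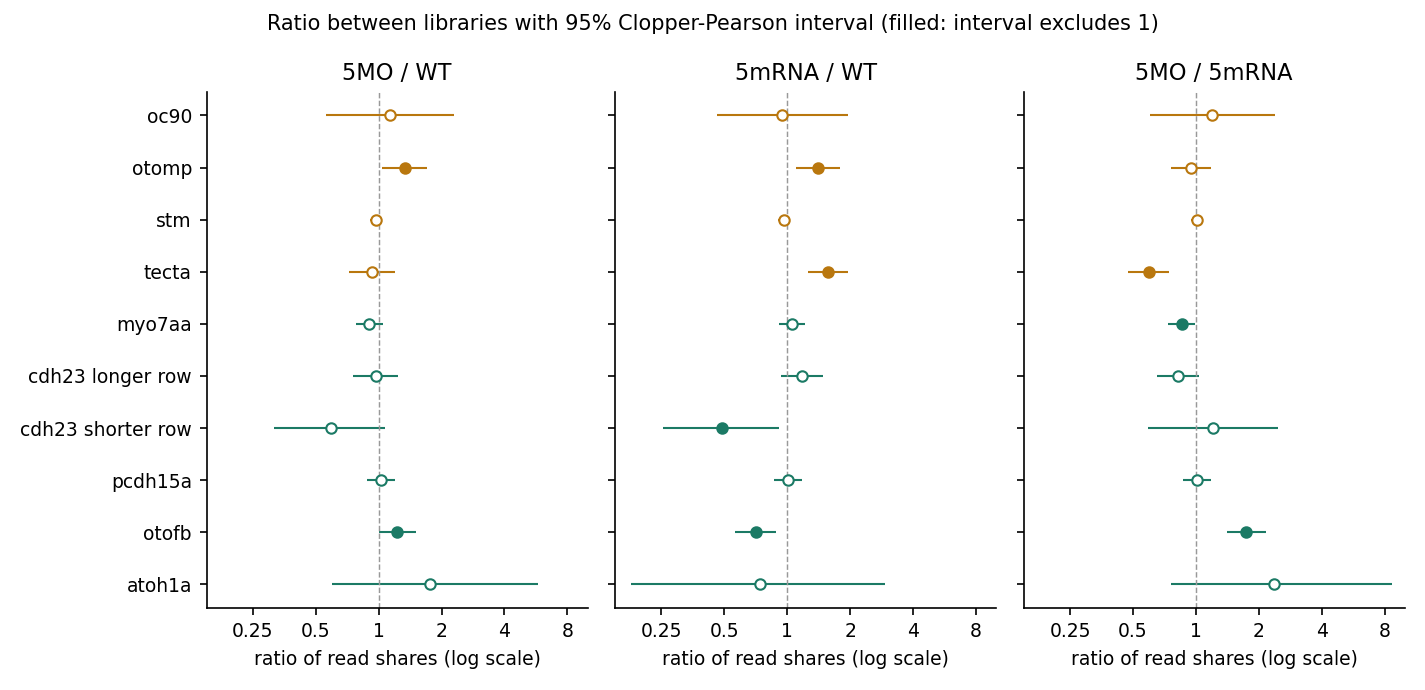
Ratio of read shares of each member row (log axis) for 5MO to WT, 5mRNA to WT and 5MO to 5mRNA, with the 95% Clopper-Pearson interval as bars. Filled points, whose interval excludes 1, number 2, 4 and 3 of the 10 rows in the 3 panels.

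Set against all genes, the members did not stand out in number. The interval of the ratio excluded 1 for 2 of 10 rows in 5MO against WT, *otomp* and *otofb*, both higher. The same held for 37.5% of the 23708 rows with a mean RPKM of at least 0.1. In 5mRNA against WT it did so for 4 rows, with *otomp* and *tecta* higher and *otofb* and the shorter *cdh23* row lower, against 34.5% of all rows. Between 5MO and 5mRNA it did so for 3 rows, with *otofb* higher and *tecta* and *myo7aa* lower in 5MO, against 40.0% of all rows. Since an interval narrows with reads, the count was also taken over the 6 members with 100 to 500 reads in WT, a range chosen after the values were seen. Of these 6 members, 2 in 5MO and 3 in 5mRNA were past their interval against WT, and 3 between 5MO and 5mRNA. Over all rows in this range the shares were 37.0%, 34.2% and 40.6% in the same order. A difference past counting error was thus common in these libraries. Of the 9 calls among members, those of *otofb* in 5MO against WT and of the shorter *cdh23* row in 5mRNA against WT are lost when the interval is placed around the log2 ratio of RPKM + 0.1.

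No member row with a mean RPKM of at least 1 differed 2-fold. On the scale of the log2 ratio of RPKM + 0.1, which understates changes of low genes, 0 of the 6 member rows with a mean RPKM of at least 1 passed 2-fold in any of the 3 comparisons. Among the 19172 rows with that mean, 2.79% passed it in 5MO against WT, 2.71% in 5mRNA against WT and 2.49% in 5MO against 5mRNA. The other 4 member rows, *oc90*, *atoh1a* and the 2 rows of *cdh23*, were under 2-fold on this scale as well. As ratios of read shares without a pseudocount, the shorter *cdh23* row was at 0.489 in 5mRNA against WT and *atoh1a* at 2.37 in 5MO against 5mRNA, the latter with an interval from 0.759 to 8.70.

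**Figure D3:**
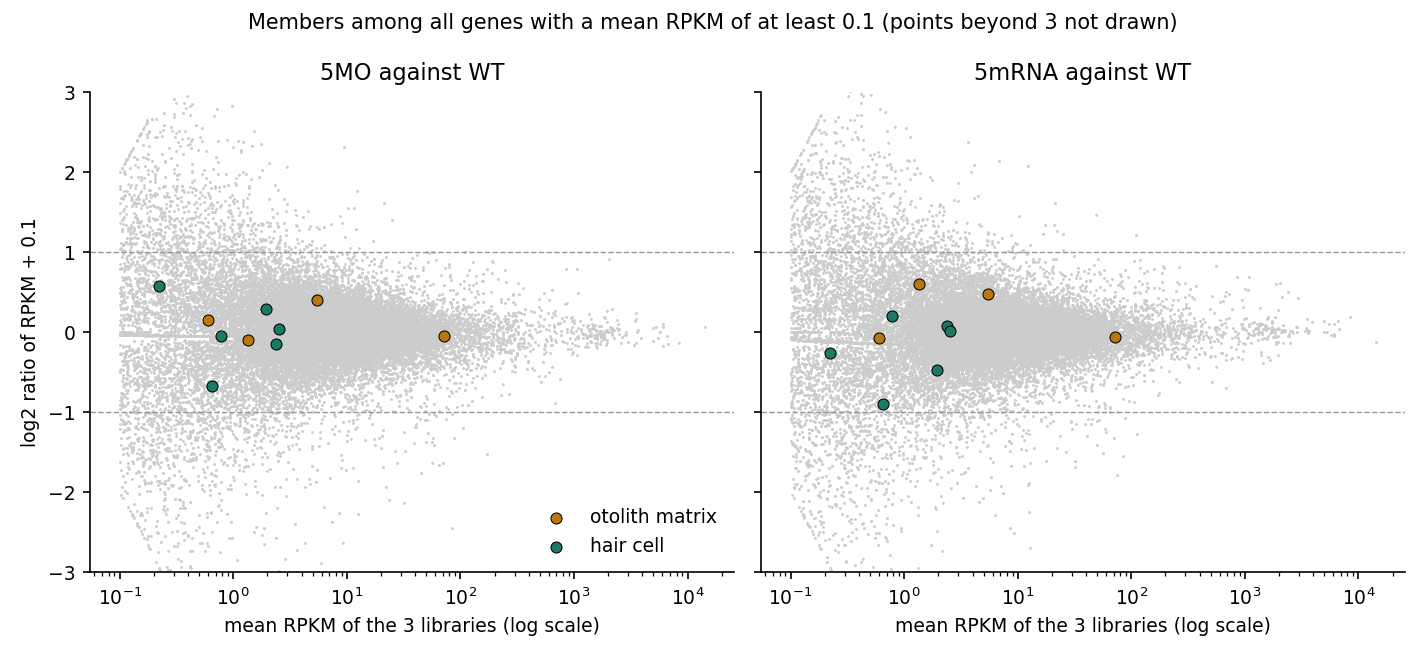
Log2 ratio of RPKM + 0.1 against WT for 5MO (left) and 5mRNA (right) over the mean RPKM of the 3 libraries (log axis), with rows of mean RPKM at least 0.1 in grey. Rows with a log2 ratio beyond 3 in either direction are not drawn. The 10 member rows lie between the dashed lines at 2-fold in both panels, from -0.67 to 0.58 in 5MO and from -0.89 to 0.61 in 5mRNA.

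As groups, the matrix members had a median log2 ratio of 0.05 for 5MO and 0.21 for 5mRNA, each against WT, and the hair cell rows had medians of -0.0024 and -0.12. With the 2 *cdh23* rows added together, the hair cell medians over 5 genes were 0.037 and 0.017. Over all 23708 rows the medians were 0.0059 and 0.0083. The matrix median in 5mRNA came from *otomp* and *tecta*, and without either of them it was -0.056. For likeness of pattern, the log2 ratios of 5MO and of 5mRNA to WT were taken as 2 coordinates over 16662 rows with at least 50 reads in each library. The nearest genes were *si:dkey-6e2.2*, *stag1a* and *mgaa* to the matrix medians, and *rprd1a*, *ANKRD28* and *actr6* to the hair cell medians. Within a distance of 0.1 lay 798 rows for the matrix and 1238 for the hair cells, so with 3 libraries the pattern marks out no small set of genes.

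Of 10 other genes of the otolith and its membranes that were looked for, 8 have a row and 7 passed a mean RPKM of 0.1. Their median log2 ratio was 0.25 for 5MO and 0.32 for 5mRNA, each against WT, and 6 of 7 in 5MO and 7 of 7 in 5mRNA were above 0, as were 50.7% and 51.1% of all rows. Both counts rest on the same WT library, and 5 of the 7 intervals include 1 in each comparison. The 2 of 7 past their interval compare with 37.5% and 34.5% of all rows. *otogl*, counted above 0 in 5mRNA, had a ratio there of 1.004, from 0.558 to 1.82, and of 1.72 in 5MO, from 1.02 to 2.97. *otol1b*, which fell below the filter, had 2, 0 and 0 reads in WT, 5MO and 5mRNA. *sparc*, an abundant matrix protein of bone, notochord and skin as well as of the otolith, was at 291.1 RPKM in WT and higher at 347.0 in 5MO and 343.6 in 5mRNA, with ratios of 1.19 and 1.18. *coch*, which encodes the ear matrix protein cochlin, had ratios of 0.873 in 5MO, from 0.732 to 1.04, and 1.17 in 5mRNA, from 0.993 to 1.37. *tectb*, the beta-tectorin partner of *tecta*, was at 1.21, 1.50 and 1.58 RPKM from 24, 31 and 35 reads, and both intervals include 1. Otogelin, *otog*, had a ratio of 1.28 in 5mRNA against WT, from 1.01 to 1.62, and of 1.03 in 5MO, from 0.800 to 1.33.

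As a list, the remaining genes of the hair bundle and the transduction channel went both ways. Of 29 looked for, 26 have a row with a mean RPKM of at least 0.1. In 5MO against WT, 5 were higher and 5 lower past their counting interval, with a median log2 ratio of 0.20. In 5mRNA against WT, 6 were higher and 3 lower, with a median of 0.02. Together 10 of 26 rows in 5MO and 9 of 26 in 5mRNA were past their interval, against 37.5% and 34.5% of all rows. The most abundant were *ush1c*, encoding the bundle scaffold harmonin, with ratios of 1.02 and 0.904 to WT, the actin bundler gene *espn*, with 0.769 and 0.817, and *tmie*, a subunit of the channel complex, with 1.17 and 1.09. The intervals of *espn* lay below 1, from 0.674 to 0.878 and from 0.720 to 0.928, and those of *ush1c* and *tmie* include 1. Among other channel genes, *tmc1* was higher past its interval in both, with ratios of 1.50, from 1.12 to 2.01, and 1.39, from 1.04 to 1.87. *tmc2a* had ratios of 1.60, from 0.972 to 2.68, and 1.65, from 1.01 to 2.74. Ratios were 1.26 and 1.02 for *tmc2b* and 1.65 and 1.53 for *lhfpl5a*. They were 0.747 and 0.694 for *lhfpl5b* and 0.898 and 0.998 for *cib2*. All intervals of these last genes include 1. The Usher gene *clrn1* was the gene of this list that passed 2-fold at a mean RPKM of at least 1. It had 45 reads in WT against 14 in 5MO and 30 in 5mRNA, at 1.61, 0.483 and 0.960 RPKM. Its ratio to WT was 0.299 in 5MO, from 0.152 to 0.554, and 0.595 in 5mRNA, from 0.362 to 0.965.

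Genes of the ribbon synapse had medians of -0.18 for 5MO and -0.11 for 5mRNA, each against WT over 8 rows. In 5MO, 1 was higher and 3 lower past the interval, and in 5mRNA 3 were higher and 2 lower. Of all rows, 37.5% and 34.5% were past it in either direction. *ctbp2a*, the source of the ribbon protein Ribeye, had ratios of 1.05, from 0.994 to 1.12, and 1.08, from 1.02 to 1.14. *cacna1da*, the presynaptic calcium channel, had ratios of 0.867, from 0.808 to 0.930, and 0.986, from 0.922 to 1.05. The vesicle-priming gene *rims2a* had ratios of 0.810 and 0.866, and both intervals lie below 1. These 3 genes are also expressed in neurons and photoreceptors. Also of this list, *cabp2b* was higher past its interval in both, with ratios of 1.44, from 1.23 to 1.68, and 1.22, from 1.04 to 1.44. *slc17a8* had ratios of 0.715, from 0.448 to 1.13, and 0.626, from 0.389 to 0.999. Hair cell regulators and calcium-binding proteins had medians of 0.06 and 0.15 over 11 rows. In 5MO, 2 of these were higher and 1 lower past the interval, and in 5mRNA 3 were higher and 0 lower, beside the same shares of all rows. Higher in both was *s100s*, with ratios of 1.42, from 1.21 to 1.68, and 1.18, from 1.004 to 1.40. Of the hair cell proteins that are abundant in whole larvae, *pvalb8* was at 87.0, 73.2 and 82.5 RPKM in WT, 5MO and 5mRNA, *s100t* at 32.0, 30.5 and 30.3, and *pvalb9* at 22.8, 23.8 and 24.9. For *pvalb8* the ratio in 5MO was 0.841, from 0.779 to 0.908, and the other intervals against WT of these 3 genes include 1.

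**Figure D4:**
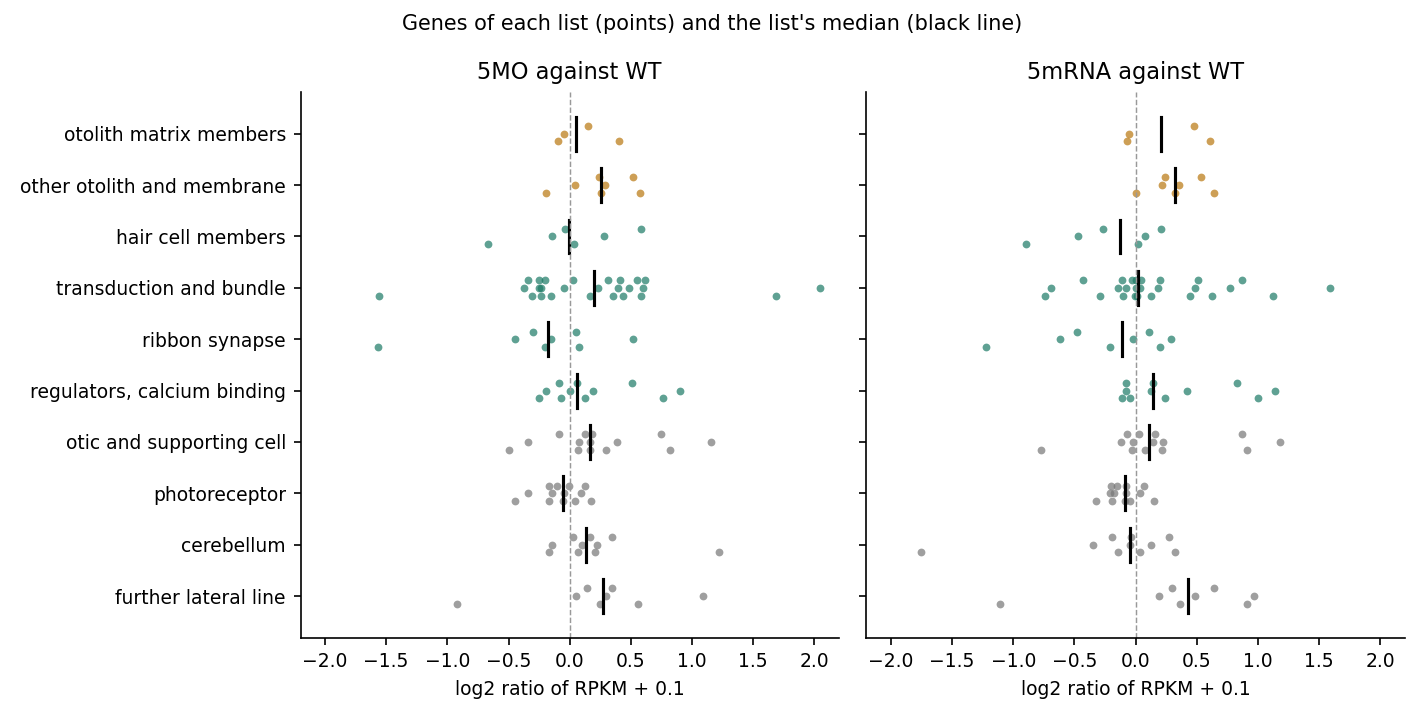
Log2 ratio of RPKM + 0.1 against WT for 5MO (left) and 5mRNA (right), 1 point per row with a mean RPKM of at least 0.1, with the median of each list as a black line. Otolith matrix lists are in ochre and hair cell lists in green. The otic and supporting cell, photoreceptor, cerebellum and further lateral line lists are in grey. Each list spreads to both sides of 0 except the other otolith genes in 5mRNA, of which 7 of 7 lie above 0, as do 51.1% of all rows.

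Some of these genes are used outside the ear, and markers of other tissues were read beside them. Zebrafish photoreceptors use *pcdh15b*, a paralog of a member. The 13 photoreceptor markers summed to 3518 RPKM in WT against 3449 in 5MO and 3211 in 5mRNA, with medians of -0.06 and -0.08 against WT. In 5MO 4 of the 13 were higher and 5 lower past their interval, and in 5mRNA 2 were higher and 9 lower. These markers have 770 to 27342 reads in WT and thus narrow intervals, and of the 4221 rows in that range 62.6% were past their interval in 5MO and 56.0% in 5mRNA. The 10 cerebellum markers, a tissue that uses *atoh1a*, had medians of 0.13 in 5MO and -0.04 in 5mRNA. Past the interval, 2 were higher and 1 lower in 5MO, and 2 were higher and 2 lower in 5mRNA. The share of all rows past their interval in either direction was 37.5% in 5MO and 34.5% in 5mRNA. The 14 rows of otic patterning and supporting cell genes had medians of 0.17 and 0.11. Of these rows, 5 were higher and 1 lower in 5MO, and 6 higher and 1 lower in 5mRNA, beside the same shares of all rows. The higher ones include both rows of *tbx1*, which overlap on opposite strands. Their ratios to WT were 1.79 and 1.70 in 5MO and 1.86 and 1.91 in 5mRNA. Of this list the most abundant were *gata3*, with a ratio of 1.31 in 5MO from 1.21 to 1.40, *sox2*, with 1.06 from 0.976 to 1.14, and *pax2a*, with 1.09 from 0.932 to 1.28. In 5mRNA, *sox2* had a ratio of 1.11, from 1.02 to 1.19. There *gata3* had 1.06, from 0.981 to 1.14, and *pax2a* had 1.11, from 0.955 to 1.30. The part of these tissues in the values of the members was not tested.

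Further lateral line genes had medians of 0.27 in 5MO and 0.43 in 5mRNA over 8 rows, with 7 above 0 and 1 below in each comparison. Of all rows, 50.7% in 5MO and 51.1% in 5mRNA were above 0. Past the interval, 3 were higher and 1 lower in 5MO, and 6 were higher and 1 lower in 5mRNA, against 37.5% and 34.5% of all rows in either direction. Of the 23708 rows, 4496 in 5MO and 4148 in 5mRNA were higher past it. Shares among rows of like depth were not taken for this list. The lateral line genes higher in 5mRNA were *prox1a*, *fgf10a*, *lef1*, *cxcr4b*, *hmx3a* and *isl1*, with ratios from 1.14 for *prox1a* to 1.98 for *cxcr4b*. The *hmx3a* row (chromosome 17 from 21496581 to 21773277) spans the row of *hmx2*, also of this list, on the same strand. Any reads that these rows share cannot be told apart. Past 2-fold was 1 of the 8 in each comparison with WT, against 2.79% and 2.71% of all rows, namely *cxcr4b* in 5MO and *cldnb* in 5mRNA. *cldnb*, the lower gene in both, is a tight junction gene of the lateral line primordium and of skin and was at 75.4 RPKM in WT and lower at 39.7 in 5MO and 34.9 in 5mRNA, with ratios of 0.526 and 0.463. *cxcr4b*, the chemokine receptor that guides the primordium and that is also expressed in blood and brain, was higher than its 3.65 RPKM in WT, at 7.89 in 5MO and 7.22 in 5mRNA, with ratios of 2.16 and 1.98. Both genes are expressed in other tissues, and neither is a member. The part of the lateral line in the values of this list, measured in whole larvae, was not tested.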

How the data were processed

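The authors deposited 1 RPKM value per gene for each of 3 libraries of whole zebrafish larvae. The submitters' notes name STAR 2.5.2a and the build danRer10, and the counting tool and annotation release are not given in the sources used here. The library kit was NEBNext Ultra, and no label states counting by strand. Of 28117 rows, 33 name no gene, hold 35.7% to 36.1% of the RPKM sum and were left out. Whole reads were recovered as RPKM × length × read total with length and reads whole and smallest, for 25904 rows. A further 2179 rows are at 0 in every library and 1 row was not resolved. The procedure was tested on simulated data. Ratios of read shares carry 95% Clopper-Pearson intervals, and levels exact Poisson intervals (Python 3.11.15, SciPy 1.17.1). No test or p-value was computed, since each condition is a single library. Log2 ratios use RPKM + 0.1. Medians use rows with a mean RPKM of at least 0.1, and 2-fold counts a mean of at least 1.

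The members and the 9 other lists were chosen with earlier results of these data known. Of 117 symbols listed, 101 were matched by symbol, 7 through the reference gene tables and 9 have no row matched here. Genes named are the members, *atg5*, paralogs, genes of the lists past 2-fold at a mean RPKM of at least 1, and the 3 most abundant genes of each ear list, with the 3 genes nearest to each median pattern. Others, among them 5 lateral line genes, genes of the channel, *s100s*, *cabp2b* and *slc17a8*, were named after their values were seen. Rows that overlap a named row were named for their position. A comparison of protein composition was planned and not run, as no protein sequences were used here.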

Additional observations from a re-analysis of the deposited data

How the results depend on the processing

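Each log2 ratio of a member row was recomputed with pseudocounts of 1 and 0.01, with scaling by the median of ratios and with equal RPKM sums. Each was set against an interval as wide on the log2 scale as its counting interval, but placed around the RPKM + 0.1 value. In 120 of 120 recomputed values it stayed within that interval, and none of the 9 past their counting interval changed sign. For 2 of these 9 the interval so placed includes 0, which are *otofb* in 5MO (-0.0040 to 0.57) and the shorter *cdh23* row in 5mRNA (-1.84 to 0.0057), both against WT. The scaling factors of the 3 libraries lay between 0.991 and 1.01. The count of members past 2-fold was 0 under every alternative run for it, which paired the pseudocount of 0.01 only with the 6 rows of mean RPKM at least 1. With that pseudocount the shorter *cdh23* row was at -1.02 in 5mRNA against WT and *atoh1a* at 1.19 in 5MO against 5mRNA. Medians over 4 or 6 rows depend on single members. With *otomp* or *tecta* left out in turn, the matrix median in 5mRNA against WT was -0.056 in place of 0.21, and with each of the 4 left out it ranged from -0.056 to 0.48. In 5MO against WT it ranged from -0.04 to 0.15. The hair cell medians ranged from -0.04 to 0.04 in 5MO and from -0.26 to 0.02 in 5mRNA. They were 0.04 and 0.02 with the 2 *cdh23* rows added together, an alternative that was not planned. No paired analysis was possible because each condition has 1 library. Depth limits *oc90*, *atoh1a* and the shorter *cdh23* row, with 5 to 31 reads per library. With a single library per condition, biological variation has no estimate.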

Other observations

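Some low genes of the ear lists had large ratios and were named after their values were seen. *clrn2*, a relative of *clrn1*, had 5 reads in WT against 21 in 5MO and 11 in 5mRNA, with a ratio to WT of 4.03 in 5MO, from 1.48 to 13.7, and of 1.96 in 5mRNA, from 0.629 to 7.21. *clrn1*, at 45, 14 and 30 reads, was lowest in 5MO, where *clrn2* was highest. The espin-like gene *espnla* had 1 read in WT against 24 in 5MO and 17 in 5mRNA, and its ratio of 23.1 in 5MO carries an interval from 3.76 to 948.1. The hair cell transcription factor genes *gfi1aa* and *gfi1ab*, of the regulator list, had 11, 24 and 31 reads and 12, 23 and 26 reads in WT, 5MO and 5mRNA. For *gfi1aa* the ratio to WT was 2.10 in 5MO, from 0.988 to 4.74, and 2.51 in 5mRNA, from 1.23 to 5.54. *gfi1ab* had ratios of 1.84, from 0.879 to 4.06, and 1.93, from 0.942 to 4.21. Of the 11 rows of that list, 7 were above 0 and 4 below in each comparison, with *pou4f3* at ratios of 0.938 and 0.966. Of all rows, 50.7% in 5MO and 51.1% in 5mRNA were above 0. The otic gene *dlx4b* had 12, 31 and 34 reads, with ratios of 2.48 and 2.53 to WT. Among the genes lower in both injected libraries were *dfnb59* of the synapse list, at 7, 1 and 2 reads, and *ush1ga* of the bundle list, at 39, 34 and 25. The intervals of *dfnb59* include 1. *ush1ga* had a ratio of 0.572 in 5mRNA, from 0.332 to 0.969, and in 5MO was within counting error at 0.837, from 0.513 to 1.36. Both comparisons use the same WT library.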
